A study of Mus musculus with 15 samples.

Results

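The genes described here carry the symbols of cytosolic ribosomal proteins, the proteins that build the ribosome of the cytoplasm. They were chosen by symbol, as Rps or Rpl followed by a digit, or Rplp0, Rplp1 or Rplp2, without S6 kinases and symbols that contain -ps. The rule reads no measured value. Of 22180 genes with a probe set of their own, 68 met the rule. They comprise 22 proteins of the small subunit, 32 of the large subunit, 3 of the stalk, 10 paralogues or retrocopies (copies of a ribosomal protein gene) and Rps19bp1. Among the copies, RefSeq lists Rpl6l as a pseudogene and Rps4l as a transcribed pseudogene. Rps19bp1 encodes a binding partner of a ribosomal protein and of the deacetylase Sirt1, and it entered through its symbol only. The first 57 are called ribosomal proteins below. Each gene was measured by its brightest probe set, a group of short array sequences read out together.

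The study asked how a diet rich in phosphate changes gene expression in the mouse aorta. Total RNA of thoracic and abdominal aorta came from DBA/2NCrl mice that were 8 weeks old at the start and were fed for 5 days. The high-phosphate diet held 20.2 g phosphorus per kg and the standard chow 7.0 g per kg. There were 4 arrays of abdominal aorta on chow, 4 of abdominal aorta on high phosphate, 4 of thoracic aorta on chow and 3 of thoracic aorta on high phosphate. No group carried an engineered allele, as far as the labels say, and the labels call the arrays biological replicates without telling if thoracic and abdominal arrays share mice. If they do, the spread between samples would be common in part between the segments.

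The ribosome decodes messenger RNA on its small subunit and joins amino acids on its large subunit, while the stalk of the large subunit recruits elongation factors. The genes of its proteins are among the most strongly transcribed in most cells, and their transcripts begin with a C followed by a run of pyrimidines, the 5′ terminal oligopyrimidine motif. Through this motif the kinase mTORC1 and the RNA-binding protein Larp1 control how strongly the transcripts are translated and how stable they are. Most of these genes also have many near-identical processed pseudogenes, so an array probe set can read RNA of copies that it does not name, and each value below carries that uncertainty.

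The sequences around the annotated transcription start show where runs of C and T lie in members on which the results turn. Each window covers 15 bases before and 15 bases from the start, taken from RefSeq on build GRCm38.p6, and capitals mark the longest run of C and T of at least 5 bases. The annotated start is base 16, and a capital run need not begin there: those of Rps27l and Rpl39l lie wholly before it and that of Rpl39 begins after it, so the capitals do not mark the terminal motif itself. The windows lie at chrX:37085208-37085237 on the minus strand for Rpl39, chr17:33955651-33955680 on the minus strand for Rps18, chr4:86857353-86857382 on the minus strand for Rps6, chr7:3704026-3704055 on the plus strand for Rps9 and chr9:120571502-120571531 on the plus strand for Rpl14. Those of Rps27 at chr3:90213634-90213663 (minus strand), Rps27l at chr9:66946071-66946100 (plus strand) and Rpl39l at chr16:10170213-10170242 (plus strand) let each paralogue be set beside its partner.
Rpl39: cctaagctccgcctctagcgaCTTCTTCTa
Rps18: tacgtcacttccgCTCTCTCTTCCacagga
Rps6: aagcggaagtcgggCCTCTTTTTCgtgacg
Rps9: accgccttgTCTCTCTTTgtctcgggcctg
Rpl14: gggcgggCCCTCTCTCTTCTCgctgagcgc
Rps27: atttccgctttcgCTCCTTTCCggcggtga
Rps27l: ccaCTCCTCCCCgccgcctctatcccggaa
Rpl39l: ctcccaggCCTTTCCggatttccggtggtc

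Over all windows, 53 of the 68 genes matched a RefSeq start, with 62 starts between them. A run of at least 8 bases of C and T, on the strand that reads like the transcript, stood in 25 of the 62 windows (40.3%), against 3943 of 32851 starts of all genes (12%). The letters CCGGAAG, an ETS-type sequence, on either strand of the 300 bases from 250 before to 50 after the start, were found at 22 member starts (35.5%) and at 2910 of all starts (8.86%). These matches are a description of letters and not of bound factors.

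Array quality and tissue content were looked at once for all groups. Arrays of 1 group correlated across genes with a Pearson's r of 0.9754 to 0.993. The defining smooth muscle markers Acta2, an actin, and Cnn1, a calponin, were high in both segments, with log2 intensities of 10.87 to 12.08 for Acta2 and 8.15 to 9.91 for Cnn1. Markers of other cell types were present as well. The mean log2 intensity of 15 T and NK cell genes lay between 5.48 and 5.63 in thoracic arrays, whereas 5 abdominal arrays (high phosphate 1, 2 and 4, chow 2 and 4) stood between 6.95 and 7.61 and the other abdominal arrays between 5.55 and 5.92. Hepatocyte genes stood apart in abdominal high-phosphate arrays 3 and 4, and cardiac muscle genes were high in the thoracic arrays (7.77 to 8.69 against 5.97 to 6.29 in abdominal ones). Sympathetic and chromaffin genes were higher in the abdominal arrays (7.64 to 9.02 against 5.69 to 6.71 in thoracic ones). Skeletal muscle genes varied within both segments (5.45 to 7.845 in abdominal and 5.63 to 7.42 in thoracic arrays) and were highest in abdominal chow array 1. In such bulk samples, fewer cells of a type and less RNA per cell cannot be told apart, and the number of arrays limits the precision.

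Ribosomal protein genes were higher on the high-phosphate diet in both segments, mostly by small amounts. The mean log2 intensity of the 57 ribosomal proteins was 8.66, 8.85, 8.71 and 8.83 in the abdominal chow arrays and 9.07, 8.99, 8.89 and 8.93 on high phosphate. It was 8.71, 8.73, 8.86 and 8.76 in the thoracic chow arrays and 8.99, 8.88 and 9.0 in the thoracic high-phosphate arrays. All high-phosphate arrays were above all chow arrays, although the gap between the lowest of the former and the highest of the latter was narrow in both segments. Abdominal high-phosphate array 1 gave the highest value of all arrays for 25 of the 57 genes, and abdominal chow array 1 the lowest for 24.

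**Figure D1:**
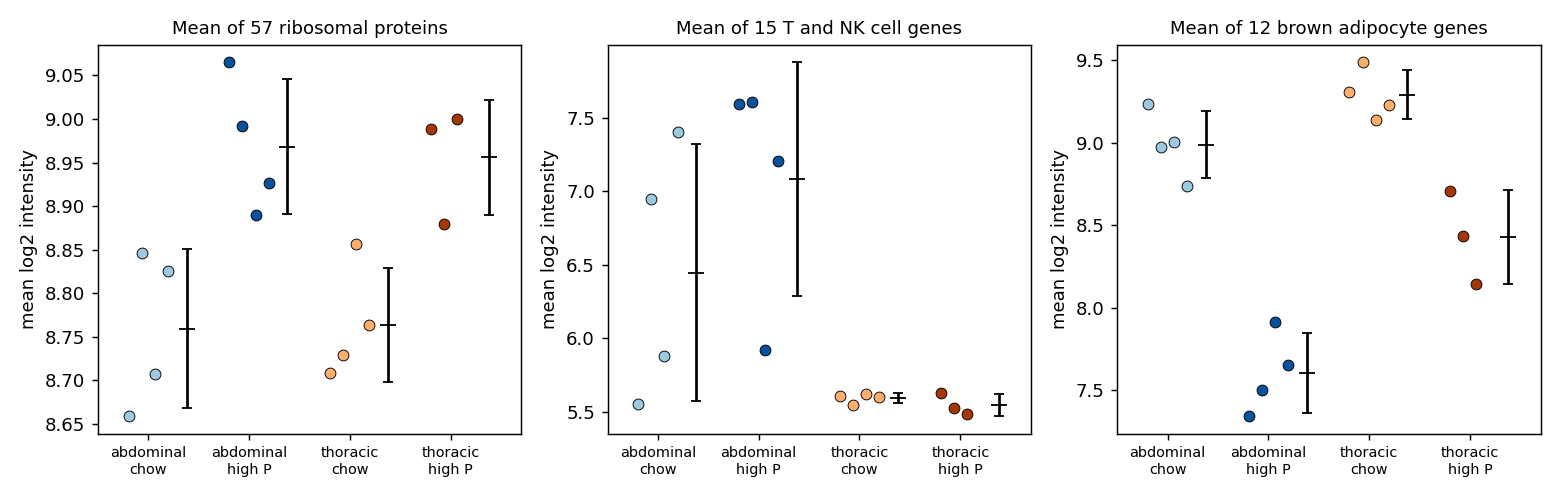
Mean log2 intensity per array of the 57 ribosomal proteins (left), 15 T and NK cell genes (middle) and 12 brown adipocyte genes (right); points are arrays and bars are the group mean ± SD, with high P standing for high phosphate. The ribosomal protein means of the high-phosphate arrays (8.88 to 9.07) sit above those of the chow arrays (8.66 to 8.86), while T and NK cell means separate single abdominal arrays and brown adipocyte means are lower on high phosphate within each segment.

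Averaged over both segments, 31 of the 68 genes changed in limma's moderated test at a Benjamini-Hochberg adjusted p under 0.05, of which 29 rose and 2 fell. Over all genes tested, 10.7% changed (4.53% rose and 6.18% fell). Of the 57 ribosomal proteins, 28 rose, 0 fell and 51 had a positive value, with a median log2 change of 0.22 against -0.01 for all genes. The range ran from -0.29 for Rps15, which has a dim probe set and did not pass the test, to 0.95 for Rpl39. Of the 31 calls, 22 were made again with each of the 15 arrays left out in turn, and 9 were lost in at least 1 such fit (Rpl10a, Rpl13, Rpl37, Rpl41, Rpl6l, Rpl7, Rps19, Rps24 and Rps27l).

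Within the abdominal aorta, 16 of the 68 genes rose and 1 fell, whereas 7.01% of all genes changed (1.95% rose and 5.06% fell). Rps19bp1 fell, and those that rose were Rpl3, Rpl14, Rpl15, Rpl21, Rpl28, Rpl32, Rpl37, Rpl38, Rpl39, Rps3, Rps3a1, Rps6, Rps9, Rps18, Rps24 and Rps27. The median change of the 68 was 0.21 on the log2 scale, against -0.01 for all genes. This count rested on single arrays: it was 3 without chow array 1, 5 without high-phosphate array 1, 7 without chow array 3 and 8 without high-phosphate array 2 or 4. It was 11 without thoracic chow array 4, which entered through the shared spread. Only the calls of Rpl39, Rps18 and Rps9 were made with every array left out in turn.

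In the thoracic aorta, 5 of the 68 genes rose (Rpl10a, Rpl14, Rpl39, Rps6 and Rps18) and 0 fell, whereas 2.47% of all genes changed (1.39% rose and 1.08% fell). The median change of the 68 was 0.18 against -0.01 for all genes, close to that in the abdominal aorta. The count was 2 without high-phosphate array 3 or chow array 1, and 3 without high-phosphate array 1 or chow array 2 or 4. The calls of Rpl39 and Rps18 were made with every array left out in turn.

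Both segments shared no array, so their changes could be set side by side. If the segments share mice, which the labels do not tell, these changes are not independent. The SE of the average change takes them as independent. Of the 68 genes, 50 had positive values in both segments, 8 negative values in both and 10 opposite signs. Across these genes, which are not independent of each other, Pearson's r between the changes was 0.728 and Spearman's rho 0.623. The same r over all genes was 0.481.

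**Figure D2:**
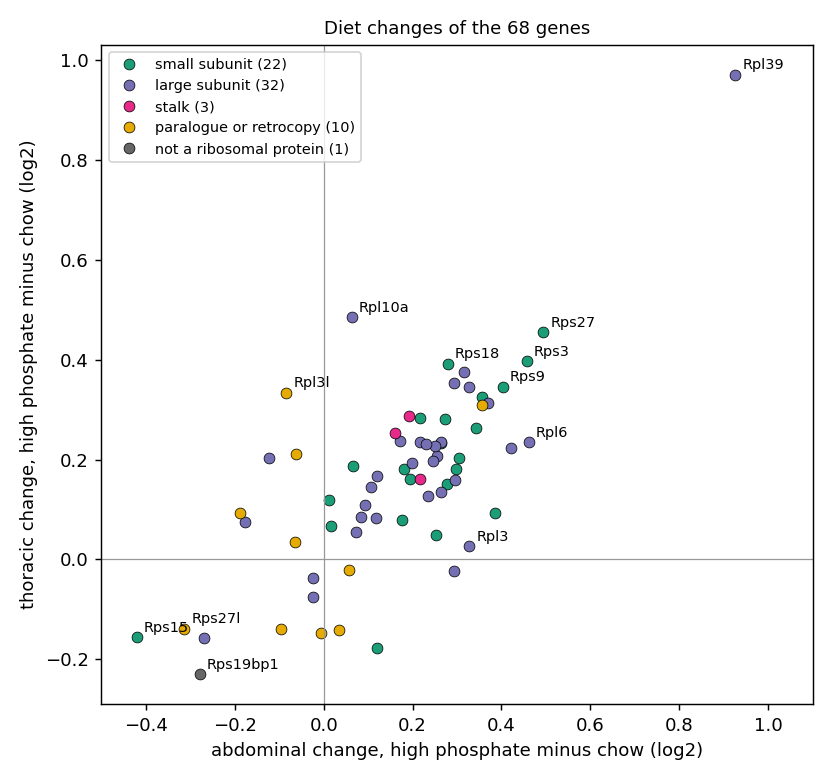
Log2 change on the high-phosphate diet in the abdominal aorta (x axis) and in the thoracic aorta (y axis) for each of the 68 genes, coloured by role, with 12 genes named. Most genes lie in the upper right quadrant between 0 and 0.5, Rpl39 stands apart at 0.93 and 0.97, and the genes in the lower left include Rps27l, Rps19bp1 and Rps15.

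Cell type markers moved with diet in the same arrays. Their counts below refer to the average diet change, in which 4.53% of all genes rose and 6.18% fell. Of 12 brown adipocyte genes, 11 fell in the average diet change, with a median of -0.96, and Ucp1, the uncoupling protein of brown fat, fell by 2.94 on the log2 scale (SE 0.27, adjusted p = 1.2e-05 in limma's test). The mean of this list lay between 8.74 and 9.24 in the 4 abdominal arrays on chow, against 7.34 and 7.91 in those on high phosphate, and between 9.14 and 9.49 against 8.14 and 8.71 in the thoracic ones, so that the diets did not overlap within a segment. With this mean as a covariate, 0 of the 68 genes were called in any diet change and the median average change was -0.14, with 53 of the 68 values negative. The share of all genes called in this fit was not counted, so the 0 cannot be set against it. Diet and the brown adipocyte signal cannot be told apart in these arrays. Of the macrophage genes 7 of 12 rose, and of the fibroblast genes 8 of 10 fell and 1 rose. Of 10 endothelial genes 5 fell and 1 rose, with a median of -0.26, and of 14 genes common to white and brown adipocytes 7 fell and 0 rose, with a median of -0.32. The part of these shifts in the ribosomal protein result was not tested.

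The T and NK cell markers, which split the abdominal arrays, were examined in the same way. In limma's fit of the average diet change 0 of the 15 genes passed the test, 0 had an unadjusted p under 0.05 and 14 had positive values. In the abdominal aorta alone 0 of the 15 passed, 1 had an unadjusted p under 0.05 and all 15 had positive values, with a median of 0.59. Of 11 B and plasma cell genes 0 passed there, 1 had an unadjusted p under 0.05 and 11 had positive values, with a median of 0.51. The part of these markers in the abdominal values was not tested beyond the fits that follow, for which no share of all genes was counted. With the mean of these markers as a covariate, 27 of the 68 genes were called in the average diet change, 7 in the abdominal one and 14 in the thoracic one. Without the 5 abdominal arrays in which they were high, 10 were called in the average and 1 in the abdominal change, with 1 high-phosphate and 2 chow arrays left there and the lone array assumed to vary like the other groups. The abdominal median was then 0.18, against 0.21 with all arrays and 0.14 with the T and NK cell mean as a covariate. In the abdominal arrays low in these markers, the mean of the 57 ribosomal proteins was 8.89 on high phosphate and 8.66 and 8.71 on chow, and in those high in them it was 8.93 to 9.07 on high phosphate and 8.83 and 8.85 on chow.

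Rpl39, a small protein of the large subunit that lines the exit tunnel of the nascent chain, had the largest change of the 68 genes. Its log2 intensity was 7.24, 7.76, 7.16 and 7.32 in the 4 abdominal arrays on chow, against 8.17, 8.14, 8.52 and 8.35 in those on high phosphate. In thoracic arrays it was 7.39, 7.61, 7.47 and 7.29 on chow and 8.29, 8.60 and 8.35 on high phosphate. The groups did not overlap, and each of the 7 high-phosphate arrays was above each of the 8 chow arrays. Its abdominal change of 0.93 (SE 0.13, adjusted p = 0.00042 in limma's test) and thoracic change of 0.97 (SE 0.14, adjusted p = 0.0022) gave an average of 0.95 (SE 0.09), or 1.93-fold, with an adjusted p of 1.8e-05. With the T and NK cell mean as a covariate the average change was 0.95, and with the brown adipocyte mean it was 1.20 with an adjusted p of 0.14. The result rests on 1 probe set, the only one that names Rpl39 alone. A dimmer probe set that names Rpl39 together with other genes, with a mean of 6.13, changed by 0.04 in the abdominal and 0.03 in the thoracic aorta.

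The proteins of the small subunit rose in 13 of 22 cases in the average diet change and fell in 0, with a median of 0.24 and 20 positive values. Over all genes 4.53% rose and 6.18% fell. Rps18, in the head of the subunit beside the transfer RNAs, read 10.63, 10.86, 10.70 and 10.80 in the 4 abdominal arrays on chow, against 11.12, 11.08, 10.91 and 10.99 in those on high phosphate. In the thoracic arrays it read 10.66, 10.72, 10.75 and 10.64 on chow and 11.06, 11.06 and 11.13 on high phosphate. The diets did not overlap, and the average change of 0.34 (SE 0.04, 1.26-fold) had an adjusted p of 0.00016 in limma's test. This rests on the brightest probe set: 2 dim ones with mean log2 intensities of 5.77 and 5.26 changed by 0.05 and -0.02, and the mean over all 3 gave 0.12 with an adjusted p of 0.16.

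Rps6, the substrate of the S6 kinases downstream of mTORC1, was among the brightest members. Its values were 12.07, 12.20, 12.07 and 12.17 in abdominal chow arrays against 12.38, 12.31, 12.36 and 12.32 on high phosphate, and 12.04, 12.01, 12.17 and 12.06 in thoracic chow arrays against 12.42, 12.25 and 12.39. The 7 high-phosphate values all lay above the 8 chow values, with an average change of 0.25 (SE 0.04, adjusted p = 0.00053 in limma's test). Rps9, which lies near the entry of the messenger RNA channel, was 9.996, 10.31, 10.04 and 10.20 in the 4 abdominal arrays on chow, against 10.66, 10.56, 10.44 and 10.50 in those on high phosphate. In the thoracic aorta Rps9 was 10.13, 10.11, 10.37 and 10.08 on chow and 10.51, 10.44 and 10.61 on high phosphate. Thoracic chow array 3 was high for its group, but still under every high-phosphate array, and the average change was 0.37 (SE 0.06, adjusted p = 0.00085 in limma's test). A second probe set of Rps9, with a mean of 9.83, changed by 0.35 in the abdominal and 0.33 in the thoracic aorta.

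Rps3, another protein of the messenger RNA entry site, had an average change of 0.43 (SE 0.09, adjusted p = 0.0073 in limma's test). It was lowest in abdominal chow array 1 at 7.26 and highest in abdominal high-phosphate array 2 at 8.25, and high-phosphate array 3 at 7.65 fell within the abdominal chow range, which reached 7.76. Rps26, Rps28, Rps10, Rps24 and Rps19, all small subunit proteins, rose by 0.34, 0.30, 0.28, 0.21 and 0.24 in the average change. The call of Rps19 was lost in 10 of the fits with 1 array left out, with an adjusted p of up to 0.075. Rps24 had an adjusted p of 0.052 without abdominal high-phosphate array 1 or thoracic high-phosphate array 1 and 0.061 without thoracic high-phosphate array 3. Rps12, Rps3a1 and Rps4x rose by 0.25, 0.25 and 0.18. Of the 9 without a call, Rps15 was 5.13, 4.70, 5.00 and 4.79 in the 4 abdominal arrays on chow, against 4.28, 4.54, 4.61 and 4.51 in those on high phosphate, without overlap. Its thoracic values of 4.36 to 5.42 on chow and 4.76 to 5.08 on high phosphate did overlap, and the average of -0.29 (SE 0.14) did not pass the test (adjusted p = 0.22 in limma's fit). The only probe set that names Rps15 was dim, with a mean of 4.83, below the array medians of 5.778 to 5.84.

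**Figure D3:**
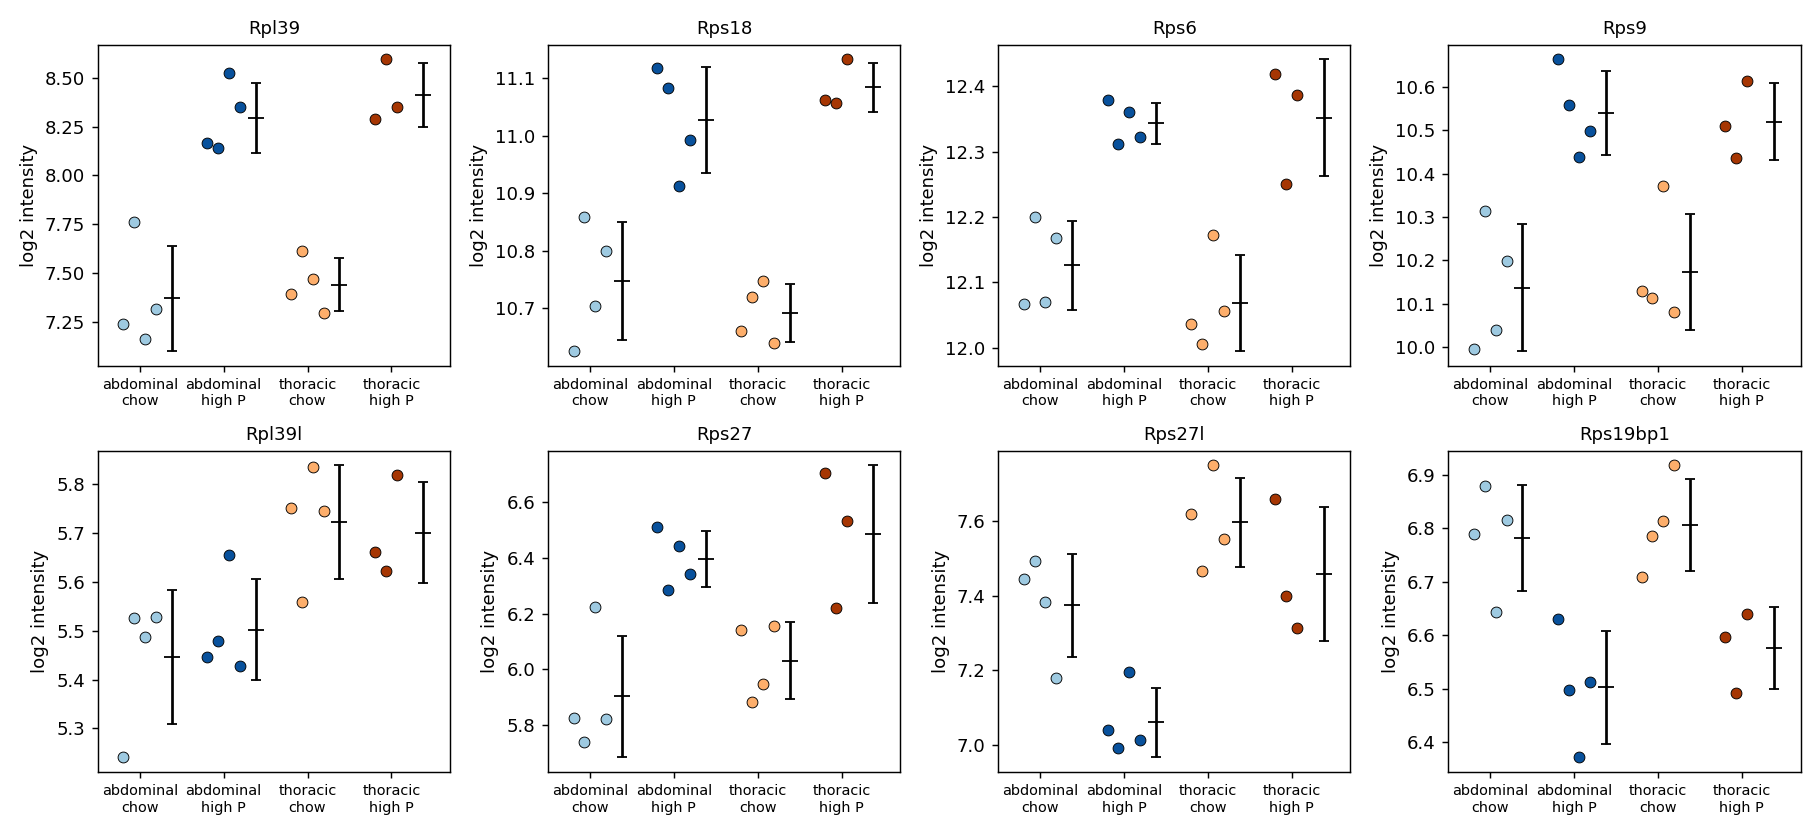
Log2 intensity of 8 genes in each array by group, with the group mean ± SD beside the points and high P standing for high phosphate. In Rpl39, Rps18, Rps6 and Rps9 all high-phosphate arrays lie above all chow arrays, in Rps19bp1 all lie below, Rpl39l shows overlapping diets, and Rps27 and Rps27l have changes of opposite sign.

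In the large subunit 15 of 32 proteins rose in the average diet change and 0 fell, with a median of 0.20 and 28 positive values. Over all genes 4.53% rose and 6.18% fell. Rpl14 was 9.69, 10.09, 9.87 and 9.97 in the 4 abdominal arrays on chow, against 10.22, 10.25, 10.10 and 10.22 in those on high phosphate. In the thoracic aorta it was 9.69, 9.67, 9.60 and 9.71 on chow and 10.11, 9.96 and 9.99 on high phosphate. The diets did not overlap within either segment, and the average change was 0.32 (SE 0.06, adjusted p = 0.0012 in limma's test). Rpl21 changed by 0.25 (SE 0.05, adjusted p = 0.0021 in the same test), with abdominal values of 11.66, 11.91, 11.80 and 11.89 on chow against 12.13, 12.12, 12.01 and 12.06, and thoracic values of 11.72, 11.68, 11.88 and 11.79 against 12.04, 11.91 and 12.06. Neither segment overlapped between diets.

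Other rises in the large subunit were smaller or had wider errors. Rpl8 rose by 0.35, and Rpl38, which in mouse development is known for its part in translating Hox transcripts, by 0.34. Rpl32 rose by 0.34, and Rpl4, which also lines the exit tunnel, by 0.23. A second bright probe set of Rpl4, with a mean of 11.74, changed by -0.04 in the abdominal and 0.07 in the thoracic aorta, so the rise of Rpl4 was seen in 1 of its 2 bright readings. Rpl37 rose by 0.32, with all high-phosphate arrays above all chow arrays, though without thoracic high-phosphate array 3 its adjusted p was 0.066. Rpl28, Rpl29 and Rpl15 rose by 0.22, 0.20 and 0.18, and Rpl41, the smallest of the ribosomal proteins, by 0.14. Of the 17 without a call, Rpl5 and Rpl11, which together with the 5S RNA bind the p53 regulator Mdm2, had values of 0.04 (SE 0.13) and 0.13 (SE 0.08), and Rpl27a had -0.21 (SE 0.12). The probe sets of Rpl5 and Rpl27a were dim, with means of 5.69 and 5.09. Brighter ones that name Rpl27a with other genes (means 10.52 and 8.21) changed by 0.24 and 0.26 in the abdominal and 0.20 and 0.14 in the thoracic aorta. That of Rpl5 (mean 7.30) changed by 0.47 and -0.04. Rpl6 had a value of 0.35 (SE 0.11, adjusted p = 0.057 in limma's test).

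The stalk proteins had positive values in both segments, and 0 of 3 passed the test in limma's fit of the average change, with 2 of 3 at an unadjusted p under 0.05, against 22.8% of all genes. The average changes were 0.24 (SE 0.11) for Rplp2, 0.21 (SE 0.12) for Rplp0, which carries the others, and 0.19 (SE 0.07) for Rplp1. Rplp0, often used as a reference gene, gave abdominal values of 7.51, 8.25, 7.80 and 8.02 on chow and 8.15, 8.02, 7.83 and 8.22 on high phosphate, so the diets overlapped. In the thoracic aorta it was 7.79, 8.32, 7.64 and 7.66 on chow and 8.13, 8.05 and 8.14 on high phosphate, and chow array 2 was above them all.

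Across the 68 genes, 5 (7.35%) had all high-phosphate arrays above all chow arrays (Rpl37, Rpl39, Rps18, Rps6 and Rps9), against 1.07% of all genes. The reverse held for 1 of them, Rps19bp1, against 1.12% of all genes. Within both segments taken separately 11 of the 68 (16.2%) had high-phosphate arrays above chow arrays, against 1.99% of all genes. In the abdominal aorta alone 18 of the 68 were separate and higher (4.12% of all genes) and 2 lower (7.75%), and in the thoracic aorta alone 22 higher (7.09%) and 1 lower (6.67%). The 11 genes further included Rpl14, Rpl21, Rpl29, Rps10, Rps27 and Rps4x.

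The paralogues and retrocopies did not move together. Of 10, Rpl6l rose, Rps27l fell and 8 did not pass the test, and their median average change was -0.03. Among all genes 4.53% rose and 6.18% fell, and 10 genes are too few to set against these shares. The clearest pair was Rps27, a zinc-finger protein of the small subunit, and its paralogue Rps27l, a known p53 target. Rps27 was 5.83, 5.74, 6.22 and 5.82 in the 4 abdominal arrays on chow, against 6.51, 6.28, 6.44 and 6.34 in those on high phosphate. It was 6.14, 5.88, 5.95 and 6.15 in thoracic chow arrays and 6.71, 6.22 and 6.53 on high phosphate. Both segments were free of overlap between diets, and the average change was 0.47 (SE 0.09, 1.39-fold, adjusted p = 0.0025 in limma's test).

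Rps27l went the other way. It was 7.44, 7.49, 7.38 and 7.18 in the 4 abdominal arrays on chow, against 7.04, 6.99, 7.20 and 7.01 in those on high phosphate, with 7.62, 7.46, 7.75 and 7.55 against 7.66, 7.40 and 7.31 in the thoracic ones. The diets overlapped in both segments, by 1 array in the abdominal aorta. Its average change of -0.23 (SE 0.07) had an adjusted p of 0.0498 in limma's test, just inside the threshold, and the call was lost in 11 of the fits with 1 array left out, with an adjusted p of up to 0.14. Whether the 2 paralogues differed from each other in their change was not tested.

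For the other pairs at most 1 partner passed the test in the average change. Rpl39l, a paralogue of Rpl39 known from testis, read 5.24, 5.53, 5.49 and 5.53 in the 4 abdominal arrays on chow, against 5.45, 5.48, 5.66 and 5.43 in those on high phosphate. In thoracic arrays it read 5.75, 5.56, 5.83 and 5.75 on chow and 5.66, 5.62 and 5.82 on high phosphate. The diets overlapped in both segments, and the average change was 0.02 (SE 0.07), with a 95% interval from -0.13 to 0.16 that lies below the interval of Rpl39 (0.75 to 1.15). The probe set of Rpl39l was dim, with a mean of 5.59, below the array medians of 5.778 to 5.84. An unchanged and an undetected transcript cannot be told apart there. This holds as well for Rpl3l, Rpl22l1, Rps23rg1 and Rps4l, with means of 5.17, 4.40, 5.50 and 5.70. Rpl3l, which replaces Rpl3 in striated muscle, was 5.48, 5.20, 4.76 and 5.18 on chow against 5.24, 5.02, 4.83 and 5.19 on high phosphate in the abdominal aorta, and 5.18, 4.89, 5.18 and 5.12 against 5.34, 5.38 and 5.56 in the thoracic one. The diets were separate in the thoracic aorta only, and its changes of -0.08 (SE 0.14) in the abdominal and 0.33 (SE 0.15) in the thoracic aorta brought no call.

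Rpl6l, the copy listed as a pseudogene, rose by 0.33 (SE 0.09, adjusted p = 0.026 in limma's test) and was the only paralogue with a mean log2 intensity above 9. On chow it gave 8.65, 9.13, 8.88 and 8.97 in the abdominal and 8.83, 8.54, 9.14 and 8.70 in the thoracic aorta, and on high phosphate 9.45, 9.20, 9.12 and 9.29 and then 9.07, 9.03 and 9.24. Single arrays overlapped between diets in both segments. Its partner Rpl6 gave 5.64, 5.85, 5.72 and 5.88 against 6.65, 5.803, 6.17 and 6.30 on high phosphate in the abdominal aorta, and 5.62, 5.61, 5.58 and 5.53 against 6.08, 5.86 and 5.52 in the thoracic one. In Rpl6 as well 1 high-phosphate array of each segment stayed within or below the chow values.

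Rpl22 binds RNA in the large subunit, and neither it nor its paralogue Rpl22l1 passed the test, with averages of 0.08 (SE 0.07) and -0.05 (SE 0.06). Rpl22 was 7.46, 7.61, 7.28 and 7.48 on chow and 7.71, 7.66, 7.31 and 7.48 on high phosphate in the abdominal aorta, then 7.37, 7.30, 7.51 and 7.42 and 7.59, 7.34 and 7.53 in the thoracic one. Rpl22l1 was 4.44, 4.46, 4.39 and 4.44 and then 4.48, 4.45, 4.46 and 4.47 in the abdominal aorta, and 4.45, 4.38, 4.48 and 4.28 and then 4.11, 4.46 and 4.20 in the thoracic one. The diets overlapped in both genes and segments.

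Rpl7, a protein of the large subunit, rose by 0.23 (SE 0.07, adjusted p = 0.035 in limma's test), whereas Rpl7l1 had -0.12 (SE 0.09) and no call. Rpl7 read 9.21, 9.47, 9.17 and 9.28 on abdominal chow arrays against 9.70, 9.61, 9.47 and 9.53, and 9.29, 9.17, 9.53 and 9.37 on thoracic chow arrays against 9.48, 9.39 and 9.63. Rpl7l1 read 6.11, 6.36, 6.37 and 6.25 against 6.18, 6.25, 5.93 and 6.34, and 6.44, 6.73, 6.22 and 6.13 against 6.35, 6.13 and 6.25. Neither gene was free of overlap in a segment.

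Rps4x and Rps23 have copies that stayed without a call. Rps4x gave 11.92, 12.11, 11.96 and 12.04 on abdominal chow arrays against 12.24, 12.25, 12.11 and 12.21, and in the thoracic aorta 12.01, 11.86, 12.09 and 12.14 against 12.20, 12.16 and 12.19, so that the abdominal diets all but touched. Rps4l, the transcribed pseudogene, gave 5.61, 5.84, 5.997 and 5.93 against 5.55, 5.56, 5.71 and 5.81, and 5.16, 5.75, 5.79 and 5.75 against 5.38, 5.86 and 5.86, with overlap in both segments and an average of -0.05 (SE 0.11). Rps23, which lies at the decoding centre, did not pass either at 0.15 (SE 0.07). Its values were 6.29, 6.53, 6.23 and 6.47 against 6.43, 6.85, 6.67 and 6.60 in the abdominal and 6.56, 6.49, 6.66 and 6.46 against 6.70, 6.505 and 6.57 in the thoracic aorta. Rps23rg1, a retrocopy of Rps23, had 5.56, 5.46, 5.65 and 5.35 against 5.40, 5.25, 5.71 and 5.41, and 5.44, 5.38, 5.60 and 5.67 against 5.59, 5.55 and 5.53, with an average of -0.015 (SE 0.08). The diets overlapped in both.

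Rpl10l and Rpl32l, with mean log2 intensities of 2.5 and 2.72, were among the dimmest members and had averages of -0.08 (SE 0.06) and 0.07 (SE 0.10). For Rpl10l the abdominal values were 2.495, 2.475, 2.495 and 2.475 against 2.66, 2.42, 2.505 and 2.32, and the thoracic ones 2.495, 2.66, 2.48 and 2.74 against 2.45, 2.495 and 2.39. For Rpl32l they were 2.56, 2.82, 2.83 and 3.08 against 3.12, 2.73, 2.48 and 2.70, and 2.43, 2.52, 2.69 and 2.61 against 2.61, 2.78 and 2.92. Both overlapped between diets, while Rpl32 itself, with 11.53, 11.74, 11.58 and 11.86 against 12.09, 12.09, 11.86 and 11.98 and with 11.58, 11.60, 11.89 and 11.61 against 11.998, 11.87 and 12.18, was higher in most high-phosphate arrays.

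Rps19bp1, the gene that is no ribosomal protein, fell in the abdominal aorta and in the average change. It was 6.79, 6.88, 6.64 and 6.82 in the 4 abdominal arrays on chow, against 6.63, 6.497, 6.37 and 6.51 in those on high phosphate, and 6.71, 6.79, 6.81 and 6.92 against 6.60, 6.49 and 6.64 in the thoracic ones. Each high-phosphate array was below each chow array, narrowly at the closest point (6.64 in thoracic high-phosphate array 3 against 6.643 in abdominal chow array 3). The abdominal change of -0.28 (SE 0.08) had an adjusted p of 0.042 in limma's test and the average of -0.25 (SE 0.06) one of 0.0085. The thoracic value of -0.23 (SE 0.08) did not pass (adjusted p = 0.20).

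The signal of the probe set sorted the members. A split at a mean log2 intensity of 9 was chosen after the values were seen, at a gap in the members between 7.97 and 9.02. All 33 members above it had positive changes in both segments, and 24 of them rose in the average change, with a median of 0.24. Of the 35 members below it 22 had a positive average change, 5 rose and 2 fell, with a median of 0.07. Over all genes of any intensity, 4.53% rose and 6.18% fell in the average change. Among all genes with a mean of at least 9, 216 of 1394 rose and 283 fell, with a median of -0.01. Rpl39, Rps27, Rps3, Rpl37 and Rps10 rose from below the split. Some members below the split also had a probe set above 9 that names them with other genes. The brightest such sets of Rpl26, Rpl30, Rpl34, Rpl37a and Rps16 had abdominal changes of 0.268, 0.285, 0.293, 0.273 and 0.328. Their thoracic changes were 0.274, 0.256, 0.217, 0.285 and 0.321. The probe sets used had averages of -0.051, -0.05, -0.032, 0.063 and 0.128. Shared sets cannot be assigned to any gene alone. Intensity does not rank RNA levels between probe sets, and the cause of the split was not tested.

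**Figure D4:**
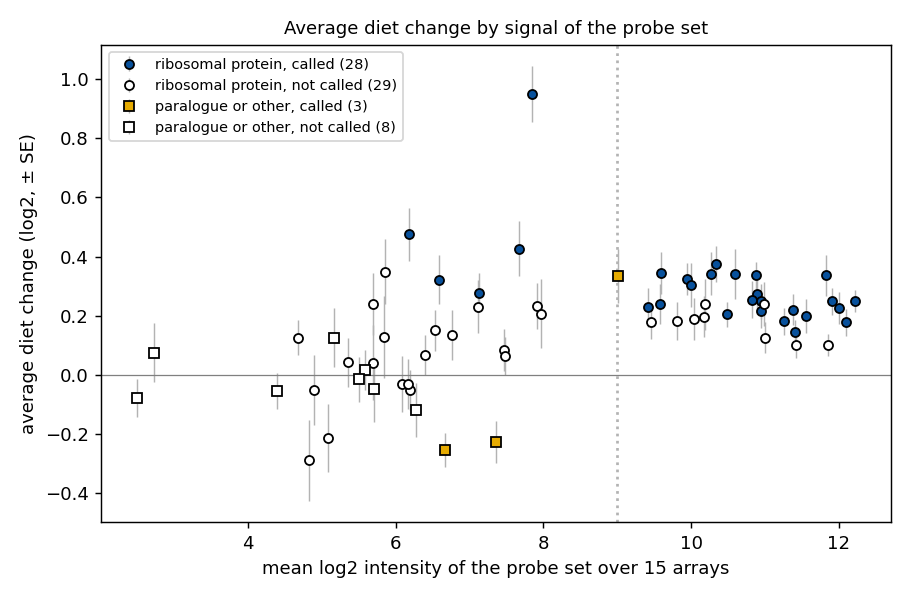
Average diet change with its SE (y axis, log2) against the mean log2 intensity of the probe set over 15 arrays (x axis) for 57 ribosomal proteins (circles) and 11 paralogues or other genes (squares); filled symbols passed the test and the dotted line marks 9. All 33 members right of the line have positive changes, while those left of it range from -0.29 to 0.95.

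Further probe sets of the same genes gave a second reading. The members had 40 besides the ones used, of which 31 had the same sign of the average change as the one used and 9 the opposite. All 19 with a mean of at least 9 were higher on high phosphate, with a median of 0.23, and 12 of 21 below 9, with a median of 0.05. Some are not independent readings, since 6 probe sets of Rps12, 2 of Rps19 and 2 of Rpl23a held identical values. Those of Rps19 and Rpl23a include the one used, so the sign of the other was fixed. Those of Rps12 each had an average change of 0.23, the value of the median of the bright ones.

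The 9 readings of opposite sign belonged to Rpl7, Rpl29, Rpl35, Rpl41, Rplp0, Rps3a1, Rps18, Rps19 and Rps20. No further probe set can be brighter than the one used, because the brightest was taken for each gene. Rpl29 gave 10.27, 10.42, 10.29 and 10.42 in abdominal chow arrays against 10.57, 10.59, 10.48 and 10.44, and 10.36, 10.43, 10.46 and 10.48 in thoracic chow arrays against 10.64, 10.61 and 10.76. The diets were separate in both segments, while a probe set of Rpl29 with a mean of 4.39 changed by -0.14. Rpl35 gave 9.90, 10.22, 9.94 and 10.04 against 10.41, 10.25, 10.09 and 10.16, and 10.01, 10.07, 10.37 and 10.10 against 10.41, 10.21 and 10.38, with overlap in both. Its other probe sets changed by 0.20 and -0.09. Rpl41 gave 11.23, 11.39, 11.40 and 11.34 against 11.57, 11.53, 11.35 and 11.40, and 11.31, 11.31, 11.40 and 11.41 against 11.52, 11.51 and 11.55, and was separate in the thoracic aorta only. Of its 4 other probe sets the dimmest changed by -0.04 and the others by 0.10 to 0.21. The second probe set of Rpl7 changed by -0.12.

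Rps19, which helps to mature the small subunit, was 9.40, 9.60, 9.36 and 9.61 against 10.01, 9.85, 9.51 and 9.79 in the abdominal and 9.42, 9.48, 9.50 and 9.36 against 9.66, 9.57 and 9.63 in the thoracic aorta, where the diets were separate. Its dim probe set changed by -0.03. Rps3a1 was 10.52, 10.89, 10.64 and 10.64 against 10.98, 10.85, 11.07 and 11.01, and 10.73, 10.56, 10.91 and 10.80 against 10.95, 10.89 and 11.01. Single arrays overlapped, and a probe set of Rps3a1 with a mean of 2.95 changed by -0.11. Rps20, without a call, was 6.33, 6.30, 6.43 and 6.42 against 6.68, 6.38, 6.24 and 6.23, and 6.38, 6.38, 6.33 and 6.35 against 6.47, 6.39 and 6.58. In the abdominal aorta its high-phosphate arrays lay on both sides of the chow arrays. Its other probe set changed by -0.07, and that of Rplp0 by -0.02.

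The diet changes of the segments were then compared with each other. For the difference between them, 0 of the 68 genes and 0 of all 22180 passed limma's test (0% of all genes), and 2 of the 68 had an unadjusted p under 0.05, against 5.49% of all genes. These were Rpl10a and Rpl3. Rpl10a, which forms the mobile L1 stalk, was 10.70, 10.91, 10.68 and 11.05 in the 4 abdominal arrays on chow, against 10.84, 10.98, 10.77 and 11.001 in those on high phosphate. In the thoracic aorta its values were 10.59, 10.66, 10.87 and 10.68 on chow and 11.16, 11.05 and 11.35 on high phosphate. The diets overlapped in the abdominal aorta and not in the thoracic one. Its change was 0.06 (SE 0.09) in the abdominal and 0.49 (SE 0.10) in the thoracic aorta, and the difference of -0.42 had an adjusted p of 0.88 in limma's test. The thoracic call had an adjusted p of 0.10 without high-phosphate array 3, and 0.073, 0.055 and 0.058 without chow arrays 1, 2 and 4; the call in the average change was lost without thoracic high-phosphate array 3 (adjusted p = 0.055).

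Rpl3, a protein near the peptidyl transferase centre, showed the opposite pattern in the probe set used. Its values were 9.26, 9.51, 9.35 and 9.51 in the 4 abdominal arrays on chow, against 9.79, 9.72, 9.66 and 9.77 in those on high phosphate. In the thoracic aorta they were 9.29, 9.31, 9.46 and 9.25 on chow and 9.46, 9.20 and 9.41 on high phosphate. The abdominal groups were separate and the thoracic groups overlapped. The abdominal change of 0.33 (SE 0.08, adjusted p = 0.015 in limma's test; 0.063 without chow array 1) stood beside a thoracic one of 0.03 (SE 0.08). Another probe set of Rpl3, with a mean of 9.23, changed by 0.35 and 0.41, so the segment pattern was not seen in both readings.

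Between segments the ribosomal proteins were close to each other. On chow, 0 of the 68 genes differed between thoracic and abdominal aorta in limma's test, while 4.78% of all genes did, and 3 had an unadjusted p under 0.05, against 19.4% of all genes. The median difference, thoracic minus abdominal, was 0.02 against 0.03 for all genes. On high phosphate 2 genes differed, 1 in each direction, against 13.8% of all genes (7.57% higher and 6.25% lower in the thoracic aorta), with a median of 0.01 against 0.04. Rps27l was higher in the thoracic aorta by 0.40 (adjusted p = 0.018 in limma's test; 0.054 without abdominal high-phosphate array 2 and 0.097 without thoracic high-phosphate array 1). Rpl3 was lower there by -0.38 (adjusted p = 0.0075), again in the probe set used. The segment comparisons share arrays with the diet comparisons.

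Other genes of translation were taken from lists by role and are given for the average change, in which 4.53% of all genes rose and 6.18% fell. Rpsa and Fau, which encode small subunit proteins under other names, rose by 0.49 (SE 0.10, adjusted p = 0.0042 in limma's test) and 0.43 (SE 0.08, adjusted p = 0.0023). Of 12 elongation genes 4 rose, 0 fell and 11 had positive values, among them Eef1b2, a subunit of the exchange factor of elongation factor 1, by 0.25 and Eef2k, the kinase that inhibits elongation factor 2, by 0.34. Of 28 initiation genes 7 rose and 0 fell, led by Eif4b, a helper of the RNA helicase, at 0.48 (SE 0.06, adjusted p = 5.3e-05 in limma's test), then Eif3e at 0.34 and Eif3f at 0.27. Several of these transcripts are known to carry the same pyrimidine motif as ribosomal protein transcripts.

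The machinery that makes ribosomes was covered by 2 lists. Of 30 ribosome biogenesis genes 4 rose (Ncl by 0.29, Npm1 by 0.21, Gnl3 by 0.37 and Pes1 by 0.22) and 0 fell, with a median of 0.05, beside 4.53% of all genes that rose and 6.18% that fell. Of 14 genes of RNA polymerase I and its factors 0 rose and 1 fell, Ubtf by 0.19. Of 19 genes of the mTORC1 pathway 4 rose and 2 fell. These included Ddit4 and Sesn1, which inhibit the pathway, at 0.81 and 0.65, Myc, a transcription factor of growth genes, at 0.43, and Tsc2, another inhibitor, at -0.30.

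The ribosomal proteins of mitochondria, which build a separate ribosome for the mitochondrial genome, had values of the opposite sign. Of 71 measured, 0 rose and 48 fell in the average change, with 1 positive value and a median of -0.30, against 28 rises and 0 falls of the 57 cytosolic ones. Over all genes 6.18% fell in the average change. In the abdominal aorta 41 of the 71 fell, beside 5.06% of all genes, and in the thoracic aorta 7, beside 1.08% of all genes. Mrpl12 fell by 0.75, Mrps16 by 0.64 and Mrpl51 by 0.56. Brown adipocytes are rich in mitochondria, and their genes fell in the same arrays, as given above; their part in this difference was not tested.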

How the data were processed

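The deposited table holds 1 value per probe set and array, read as log2 intensities because the values run from 1.381 to 13.33 and array medians lie between 5.778 and 5.84. The authors' processing notes name RMA and Partek, without versions, and do not give the base of the logarithm. Of 41345 probe sets, 23521 name exactly 1 gene, and the brightest per gene by its mean over 15 arrays gave 22180 genes, all tested, with no filter on low signal. All 68 members matched RefSeq.

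Arrays were grouped by segment and diet. In limma 3.58.1 (R 4.3.3), lmFit estimated 4 group means and eBayes, with a trend in intensity, moderated the spread over 11 residual degrees of freedom. The p-values were two-sided and Benjamini-Hochberg adjusted over all genes, called under 0.05. Changes are high phosphate minus chow. The average change is the mean of both segments. The script was tested on simulated data. Alternatives were an adjusted p under 0.1, no trend, a filter on dim genes, quantile normalization, median centring, array weights, averaging all probe sets per gene, only the groups compared, a replicate block, marker covariates and left-out arrays. Tables and plots were made with Python 3.11.15 and matplotlib 3.10.9.

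Every array value was given to members called with the smallest p, to paralogues and their partners and to members with probe sets of opposite sign, and other lists are named by up to 4 genes with the smallest p. The rule for members reads symbols only, but members and lists were chosen with earlier results of these data known. P-values measure the spread between these samples only. Detection calls and scan dates were not used here.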

Additional observations from a re-analysis of the deposited data

Results flagged for a closer look

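In 4 of 75 group and gene combinations of 4 arrays, 1 array lay far from the other 3, where chance gives about 1 in 20. In thoracic chow array 3 Rpl32 was 11.89, where the other arrays lay between 11.58 and 11.61, and Rps9 was 10.37, where they lay between 10.08 and 10.13. Rpl39l was 5.24 in abdominal chow array 1, against 5.49 to 5.53. Rps4l was 5.16 in thoracic chow array 1, against 5.75 to 5.79.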

How the results depend on the processing

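The direction of the members' median and of the called genes held in the diet changes under every alternative run except the brown adipocyte covariate. The abdominal count of 17 became 31 at an adjusted p under 0.1, 10 without a trend, 27 with quantile normalization, 26 with array weights, 6 with only the groups compared, 7 with the T and NK cell covariate and 1 without the 5 abdominal arrays high in T and NK cell markers. Leaving out each array in turn gave 3 to 24. The thoracic count of 5 became 11 at 0.1, 3 without a trend, 9 with array weights and 14 with the T and NK cell covariate, and 2 to 6 with an array left out. The average count of 31 became 10 without the 5 arrays, and 23 to 35 with an array left out. The count between segments on chow became 1 at 0.1 and 0 to 1 with an array left out. That on high phosphate, 2, became 4 at 0.1, 5 with quantile normalization, 4 with median centring, 1 with the mean of probe sets, 1 with the T and NK cell covariate, 0 without the 5 arrays, 4 without the 2 arrays high in hepatocyte markers, and 1 to 3 with an array left out. The count for the difference between the diet changes stayed 0 with every array left out.

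Medians with an array left out ran from 0.16 to 0.25 (abdominal), 0.14 to 0.20 (thoracic), 0.17 to 0.22 (average), -0.04 to 0.05 (difference), -0.02 to 0.05 (segments on chow) and -0.03 to 0.04 (segments on high phosphate). With the mean of probe sets the medians were 0.15, 0.12 and 0.13 in the abdominal, thoracic and average changes. With the T and NK cell covariate they were 0.14 in the abdominal change, -0.058 for the difference, 0.093 between segments on chow and 0.16 on high phosphate. The last was 0.10 without the 5 arrays and -0.079 without the 2.

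With the brown adipocyte covariate the counts were 0 in the abdominal, thoracic and average changes and 0 between segments on high phosphate. The medians were -0.20, -0.069 and -0.14 in these changes, -0.12 for the difference, 0.088 between segments on chow and 0.21 on high phosphate. Called genes with the other sign were, in the abdominal change, Rpl15 -0.14, Rpl21 -0.10, Rpl28 -0.14, Rpl32 -0.36, Rpl37 -0.26, Rpl38 -0.23, Rps18 -0.068, Rps24 -0.18, Rps3 -0.47, Rps9 -0.095, and in the average change, Rpl10a -0.16, Rpl13 -0.23, Rpl15 -0.12, Rpl21 -0.046, Rpl28 -0.087, Rpl29 -0.053, Rpl32 -0.22, Rpl37 -0.23, Rpl38 -0.15, Rpl4 -0.18, Rpl41 -0.13, Rpl6l -0.32, Rpl7 -0.19, Rpl8 -0.067, Rps10 -0.14, Rps12 -0.13, Rps19 -0.18, Rps24 -0.16, Rps26 -0.28, Rps27l 0.13, Rps28 -0.077, Rps3 -0.32, Rps4x -0.086, Rps9 -0.029. This covariate nearly follows diet within each segment, and the share of all genes called with it was not counted.

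For 21 pairs of arrays with the same replicate number, r of deviations ran from -0.25 to 0.404 and 5 were over 0.1. Only arrays of the same diet from different segments could share a mouse. For these r was 0.122, 0.079 and 0.031 on high phosphate and 0.046, 0.03, 0.069 and 0.048 on chow. These values are low and positive, and they do not settle whether the segments share mice. With the replicate number as a block the counts were 8 (abdominal), 5 (thoracic) and 28 (average). The arrays' number, 3 or 4 in a group, and an unknown signal over background limit these values.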

Other observations

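A further 14 ribosomal protein symbols (Rpl10, Rpl12, Rpl13a, Rpl23, Rpl24, Rpl31, Rpl35a, Rpl36, Rpl36a, Rpl36al, Rps15a, Rps2, Rps21 and Rps27rt) stood only on probe sets that name several genes, so they were not members. Over all 57 probe sets that name a ribosomal protein together with another gene, 50 were higher on high phosphate in the abdominal aorta and 44 in the thoracic aorta, with median log2 changes of 0.17 and 0.12. These sets cannot be assigned to 1 gene.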
